A study of Mus musculus with 4 samples.

Results

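The 10 core pluripotency genes were followed in mouse germline stem cells by the methylation of their CpG sites: Pou5f1, Nanog, Sox2, Klf4, Klf2, Zfp42, Esrrb, Dppa3, Prdm14 and Tdgf1. They were taken by symbol from the mm10 annotation, each with 20 kb of flanking sequence on both sides, and are 10 of the 26825 protein-coding and long noncoding genes whose 5′ end could be placed. Germline stem (GS) cells are cultured spermatogonial stem cells of the testis. The cells were wild type and were derived from the testis of Green mice, whose strain is given as C57BL/6 Tg14(act-EGFP)OsbY01 with a DBA/2 background and which carry an act-EGFP transgene. In both groups they grew in a modified Iscove's medium with FGF2, GDNF and fetal bovine serum. The groups differed in time in culture, about 5 months (5M-GS) or 60 months (60M-GS), with 2 samples each. How many founder animals or lines were used, and whether the older cells descend from the younger, is not given in the sources used here. The whole genome was sequenced after bisulfite conversion, with adaptors added after the conversion (post-bisulfite adaptor tagging).

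Pou5f1 (also called Oct4), Nanog and Sox2 are transcription factors at the centre of the network that keeps embryonic stem cells pluripotent, and Klf4, Klf2, Esrrb and Prdm14 act with them. Methylation of CpGs at a promoter or enhancer usually goes with a silent element, while the bodies of active genes are commonly methylated. Germ cells are unipotent although they express several of these genes, and cultured spermatogonial stem cells can on occasion convert to a pluripotent state.

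The tables held 19371838 CpGs with 468121185 calls in 5M-GS (median 21 calls per CpG) and 19341319 CpGs with 471693518 calls in 60M-GS (median 22). Each table pools the 2 replicates of its age, so the spread between replicates could not be measured. Every test below compares the 2 pooled libraries, not culture ages, and its intervals cover counting error only. A level is an average over cells and alleles, so partial methylation in every cell and a mixture of methylated and unmethylated cells cannot be told apart. Around the 10 genes, the ratio of depth per CpG in 60M-GS to that in 5M-GS lay between 0.959 and 1.05, against 1.01 over all tiles of the genome together. No RNA was measured, so the germ cell label could be checked only by methylation. The promoter windows of 5 of 6 germ cell genes (all but Ddx4, at 11.8% and 9.96%) were below 10% in both cultures. The same held for 55.2% of all protein-coding promoter windows, and a low level therefore does not by itself mark germ cells. For 5 genes of testis somatic cells, the windows lay at the outermost annotated starts, and any inner starts are not described here. Gata4, Star and Cyp17a1 were at or above 80.4% in both, Amh was at 65.9% and 46.0%, and Sox9 was below 1%. The stretch upstream of H19 that is methylated on the paternal allele in sperm was at 93.5% and 91.0%, and the H19 promoter window was at 15.5% and 17.3%. Snrpn has an imprint methylated on the maternal allele. The window at its outermost annotated start, of 6 CpGs, was at 41.5% (34.1 to 49.3) in 5M-GS and 55.6% (47.9 to 63.0) in 60M-GS. Whether this window covers the imprint was not checked, so its level is not a reading of the imprint.

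The sequences around 6 annotated starts are shown first, because they hold the CpGs at the starts whose levels are described below. Each holds 250 bases before and 50 bases after a RefSeq start in GRCm38.p6 (mm10), written 5′ to 3′ on the strand of the gene with CpGs in capitals. They are the Nanog outer start (chr6:122707239-122707538, plus strand), the Esrrb outer start (chr12:86360867-86361166, plus), the Esrrb inner start (chr12:86421394-86421693, plus), the Pou5f1 outer start (chr17:35505782-35506081, plus), the Zfp42 start (chr8:43306960-43307259, minus) and the Klf2 start (chr8:72318812-72319111, plus).
Nanog outer start: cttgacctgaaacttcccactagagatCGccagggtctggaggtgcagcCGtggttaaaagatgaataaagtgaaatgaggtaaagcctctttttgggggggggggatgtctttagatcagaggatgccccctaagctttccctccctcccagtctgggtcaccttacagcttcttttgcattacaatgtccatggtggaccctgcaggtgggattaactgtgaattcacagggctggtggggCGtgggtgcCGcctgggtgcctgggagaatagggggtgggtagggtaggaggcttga
Esrrb outer start: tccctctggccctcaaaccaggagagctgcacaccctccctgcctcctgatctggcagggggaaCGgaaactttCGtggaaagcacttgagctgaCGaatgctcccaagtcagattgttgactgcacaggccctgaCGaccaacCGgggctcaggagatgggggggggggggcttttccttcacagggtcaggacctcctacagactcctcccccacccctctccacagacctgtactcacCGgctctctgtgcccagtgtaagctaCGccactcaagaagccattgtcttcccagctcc
Esrrb inner start: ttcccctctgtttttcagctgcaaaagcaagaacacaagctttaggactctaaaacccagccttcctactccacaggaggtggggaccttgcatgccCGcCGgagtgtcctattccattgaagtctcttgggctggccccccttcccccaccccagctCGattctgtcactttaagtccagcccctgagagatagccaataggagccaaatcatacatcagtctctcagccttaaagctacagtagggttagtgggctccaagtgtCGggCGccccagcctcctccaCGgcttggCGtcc
Pou5f1 outer start: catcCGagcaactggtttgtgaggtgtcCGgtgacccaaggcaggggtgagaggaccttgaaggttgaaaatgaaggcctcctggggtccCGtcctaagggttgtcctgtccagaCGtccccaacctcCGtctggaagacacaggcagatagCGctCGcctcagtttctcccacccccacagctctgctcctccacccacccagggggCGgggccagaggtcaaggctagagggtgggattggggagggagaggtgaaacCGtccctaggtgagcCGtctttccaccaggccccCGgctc
Zfp42 start: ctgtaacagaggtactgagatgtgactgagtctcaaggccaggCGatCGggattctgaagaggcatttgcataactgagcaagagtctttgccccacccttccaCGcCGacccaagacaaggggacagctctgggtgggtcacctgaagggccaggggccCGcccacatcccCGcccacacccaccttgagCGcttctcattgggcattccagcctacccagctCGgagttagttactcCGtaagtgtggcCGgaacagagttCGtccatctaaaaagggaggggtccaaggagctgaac
Klf2 start: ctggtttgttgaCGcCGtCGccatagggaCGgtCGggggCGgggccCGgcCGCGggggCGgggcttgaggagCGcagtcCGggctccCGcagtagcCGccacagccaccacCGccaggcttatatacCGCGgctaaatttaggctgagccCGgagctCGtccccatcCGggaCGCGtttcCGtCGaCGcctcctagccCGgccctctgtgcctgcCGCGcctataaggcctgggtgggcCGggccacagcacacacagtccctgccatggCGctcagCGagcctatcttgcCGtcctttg

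The Nanog sequence holds 4 CpGs, fewer than the median of 7 over 32851 RefSeq promoter sequences, and methylated calls on the 4 together made up 76.5% in the younger culture and 36.3% in the older. Both Esrrb sequences hold 7 CpGs. The 5 covered ones at the outer start were at 39.5% and 58.7%, and the 7 at the inner start were at 0.518% and 0%. Pou5f1 and Zfp42 hold 11 CpGs each, at 3.98% and 2.25% in Pou5f1 and at 0.746% and 1.45% in Zfp42. Klf2 holds 32, of which 22 had enough calls, at 0% and 1.32%. Klf4, not printed, holds 40 CpGs in the same stretch. The motifs were searched on both strands, each by itself, so overlapping matches each counted. The octamer ATGCAAAT was found in the Zfp42 sequence and in 1.74% of all promoter sequences. The Sox core ACAATG was found in the Nanog sequence and at the Esrrb outer start, and in 12.6% of all. The GC box GGGCGG, present in 35.7% of all, occurs in the Pou5f1, Zfp42 and Klf2 sequences, and CCACCC, present in 31.5% of all, occurs in all 6 sequences shown. These are matches of letters and not evidence of binding.

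A promoter window reached from 1000 bp before to 500 bp after the outermost annotated start. Calls were summed over the CpGs with 5 or more calls in each of the tables, and the methylated and unmethylated sums of the libraries were set against each other in a two-sided Fisher's exact test. Its p-values were adjusted by the method of Benjamini and Hochberg over 25069 windows genome-wide. A region was called a gain or a loss at an adjusted p under 0.05 and a difference of at least 20 percentage points. Of the 10 promoters, 0 were called in either direction. Of all promoter windows 4.55% were called gains and 0.507% losses, and of protein-coding ones 3.66% and 0.300%. At an unadjusted p under 0.05, 3 of the 10 were higher and 2 were lower in 60M-GS. At an adjusted p under 0.05 whatever the size, 2 were higher (Esrrb and Prdm14) and 2 were lower (Nanog and Pou5f1), against 15.8% and 5.03% of all windows. Of the 10, 8 (all but Nanog and Esrrb) were below 10% in both cultures, as were 55.2% of the 16025 protein-coding promoters. The promoters of the pluripotency genes were thus mostly unmethylated at both ages, with Nanog and Esrrb apart.

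**Figure D1:**
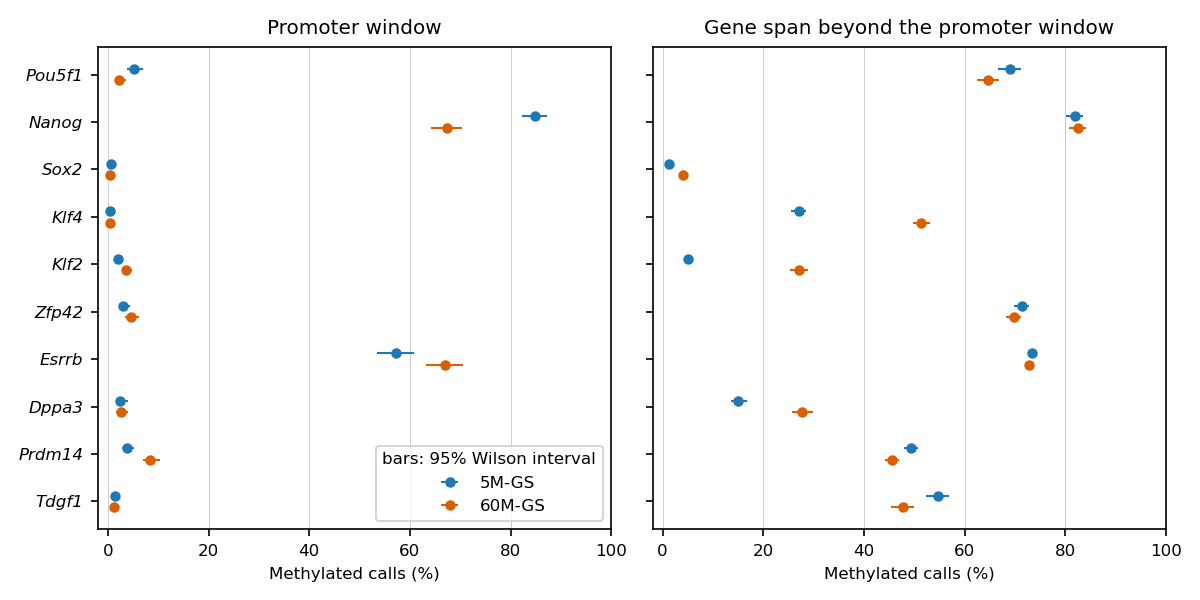
Methylated calls in percent (horizontal axis) for each gene, in the promoter window (left) and in the gene span beyond it (right). Blue points are 5M-GS, orange points are 60M-GS, and bars are 95% Wilson intervals, which cover counting error only. In the left panel 8 promoters sit below 10% in both cultures, and the Klf4 and Klf2 spans are the pairs more than 20 points apart.

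Pou5f1 encodes the POU-domain factor Oct4. Its promoter window (33 CpGs) was at 5.14% (95% interval 3.73 to 7.03) in 5M-GS and 2.23% (1.37 to 3.58) in 60M-GS. The difference of -2.91 points had an adjusted p of 0.0239 by Fisher's exact test, so the window was low in both and slightly lower in the older culture. An inner start 2775 bp downstream was at 87.5% and 85.7%. Upstream, the lower level of 60M-GS extended for 10 kb. The stretch from 1000 to 2500 bp upstream was at 27.3% and 14.5% (-12.8 points, -18.5 to -7.02; adjusted p = 1.60e-04 in Fisher's exact test). The next, to 5000 bp, was at 56.3% and 46.6%, and that from 5000 to 10000 bp was at 68.7% and 53.5% (-15.2 points; adjusted p = 3.59e-07 in Fisher's exact test). From 10000 to 20000 bp upstream the sums were at 53.8% and 62.6%, and tiles of 1 kb differed in direction there. The 2 outermost tiles of Pou5f1, from 20031 to 18032 bp upstream, were called gains, from 21.2% to 46.4% and from 11.3% to 49.6%. The 6 other measured tiles of that stretch were lower in 60M-GS by value, 1 of them a called loss. The largest tile loss of Pou5f1, from 9031 bp upstream, was from 74.2% (64.5 to 82.0) to 30.5% (21.6 to 41.1) over 6 CpGs. Downstream of Pou5f1, 2 adjoining tiles in the neighbouring gene Cchcr1, from 13969 and 14969 bp, rose from 62.3% to 92.2% and from 58.9% to 90.8%. Known Pou5f1 enhancers lie in this region, the distal one being the element used in naive embryonic stem cells and germ cells and the proximal one that of the epiblast. Over their approximate positions, the proximal enhancer (900 to 1500 bp upstream) was at 20.1% and 17.7%, and the interval of the difference, -11.7 to 7.17, includes 0. The distal enhancer (1800 to 2500 bp upstream, 7 CpGs) was at 32.2% (26.1 to 38.9) in 5M-GS and 13.9% (9.84 to 19.2) in 60M-GS, and these intervals do not overlap. Of the 2 tiles that hold it, 0 were called. Their differences were -11.4 points (Fisher's exact test, adjusted p = 0.230) and -10.3 points (Fisher's exact test, adjusted p = 0.0133). The gene span beyond the promoter window was methylated in both, at 69.0% and 64.7%.

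Nanog encodes a homeobox factor that stabilises the naive state. Its promoter window (25 CpGs, chr6:122706489-122707989) was at 84.9% (82.3 to 87.2) in 5M-GS and 67.4% (64.2 to 70.4) in 60M-GS. The difference of -17.6 points (-21.5 to -13.6, Fisher's exact test, adjusted p = 5.76e-16) fell short of the 20 points asked for. Among protein-coding promoter windows, 0.480% had a lower difference. The difference was concentrated around the start. In a narrower window, 500 bp before to 200 bp after the start (12 CpGs), Nanog was at 84.3% (79.5 to 88.1) in 5M-GS and 44.2% (39.1 to 49.4) in 60M-GS. This difference of -40.1 points (-46.5 to -33.1, Fisher's exact test, adjusted p = 3.83e-24) was called a loss, against 0.824% of all narrow windows called as losses and 4.74% as gains. The wide window was also called without CpGs of over 74 calls (-22.2 points) and with CpGs weighted equally (-21.1 points).

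Single Nanog CpGs show the edges of the lower stretch. In 60M-GS the 11 CpGs from 423 bp upstream to 152 bp downstream were between 18.4% and 58.6%, and in 5M-GS the same CpGs were between 68.4% and 97.1%. The lowest was the CpG 333 bp upstream, at 68.4% of 19 calls in 5M-GS and 18.4% of 38 calls in 60M-GS. The CpG next to the start, 2 bp downstream, was at 72.2% of 18 calls and 33.3% of 21 calls. On either side the CpGs of 60M-GS were higher: the one 462 bp upstream was at 91.2% of 34 calls and 76.3% of 38 calls, and the one 346 bp downstream was at 77.5% and 78.2%. Further into Nanog, the CpG 499 bp downstream was at 81.8% and 59.0%. Averaged over runs of 5 CpGs, the stretch below 50% around the Nanog start ran from 412 bp upstream to 84 bp downstream in 60M-GS, and there was none in 5M-GS. The rest of the Nanog gene was at 81.9% and 82.5%.

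Upstream of Nanog, 4 of 20 tiles were called gains, against 3.48% of all tiles genome-wide, and all of them lay beyond 5 kb. The stretches from 1000 to 2500 bp and from 2500 to 5000 bp were at 89.9% and 89.4% and at 29.1% and 28.1%, while that from 5000 to 10000 bp was at 46.1% in 5M-GS against 58.2% in 60M-GS. A CpG-dense run of 21 CpGs from 11502 to 11286 bp upstream (chr6:122695987-122696203, outside annotated genes) was at 9.85% (7.47 to 12.9) in 5M-GS and 82.9% (78.7 to 86.4) in 60M-GS. The gain of 73.0 points (67.9 to 77.3, Fisher's exact test, adjusted p = 5.40e-108) was the largest among the 25 dense runs (20 CpGs or more, no gap over 50 bp) around the 10 genes. Of those 25, 3 were called gains and 0 losses, against 5.13% and 0.120% of all 23248 runs. In this run the CpG 11425 bp upstream of Nanog went from 0% of 23 calls to 100% of 15 calls. Other tiles, from 9488, 12488 and 20488 bp upstream of Nanog, also rose, from 36.2% to 72.9%, from 62.3% to 85.2% and from 58.3% to 90.6%. Between the dense run and the promoter lies the enhancer 5 kb upstream of Nanog, known from embryonic stem cells. It was unmethylated in both, at 1.16% (0.589 to 2.27) in 5M-GS and 1.32% (0.697 to 2.49) in 60M-GS over 24 CpGs. In the stretch 40 to 50 kb upstream, which also holds an embryonic stem cell enhancer of Nanog, 2 of 11 tiles were called gains. These neighbouring tiles went from 44.7% to 73.4% and from 33.0% to 65.3%.

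Sox2 encodes the HMG-box partner of Oct4 and lies within the long noncoding gene Sox2ot. Its promoter window (89 CpGs) was at 0.598% (0.315 to 1.13) in 5M-GS and 0.320% (0.137 to 0.747) in 60M-GS (Fisher's exact test, adjusted p = 0.565). The gene span was also low, at 1.31% and 4.03%, a difference of 2.72 points with an adjusted p of 4.62e-08. The 7 dense runs around Sox2, between 8023 bp upstream and 14278 bp downstream of its start, stayed at or below 2.01% in both cultures. Of the 44 tiles of Sox2, 15 were below 30% in both, against 4.19% of all tiles genome-wide. The stretch below 50% around its start was shorter in the older culture, running from 2548 bp upstream to 4159 bp downstream in 5M-GS and from 2260 bp upstream to 1982 bp downstream in 60M-GS. This end in 60M-GS is a local break in an average over 5 CpGs: the Sox2 tiles from 2006 and 3006 bp downstream were at 15.0% and 1.82% in 60M-GS, against 2.73% and 1.42% in 5M-GS. Outside the unmethylated centre, 5 tiles of Sox2 were called gains and 1 a loss, against 3.48% and 0.475% of all tiles genome-wide. The largest gain was the tile 6006 to 7005 bp downstream of the Sox2 start, from 19.7% to 60.2%, and the tile next to it went from 13.4% to 50.2%. Upstream of Sox2, the tiles from 15994 and 11994 bp went from 6.72% to 32.9% and from 19.3% to 55.9%. The loss, 21006 to 22005 bp downstream, went from 71.4% to 39.0%. Of the named Sox2 enhancers, the upstream SRR1 was at 54.2% and 49.2% with an interval of the difference of -12.2 to 2.18. The downstream SRR2 was at 3.82% and 3.93%. In the stretch 100 to 120 kb downstream, which holds the distal enhancer cluster used in embryonic stem cells, 1 of 21 tiles was called, a loss from 41.2% to 17.7%. The least methylated Sox2 tiles in that stretch were at 8.52% and 3.34% and at 6.79% and 1.78%.

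**Figure D2:**
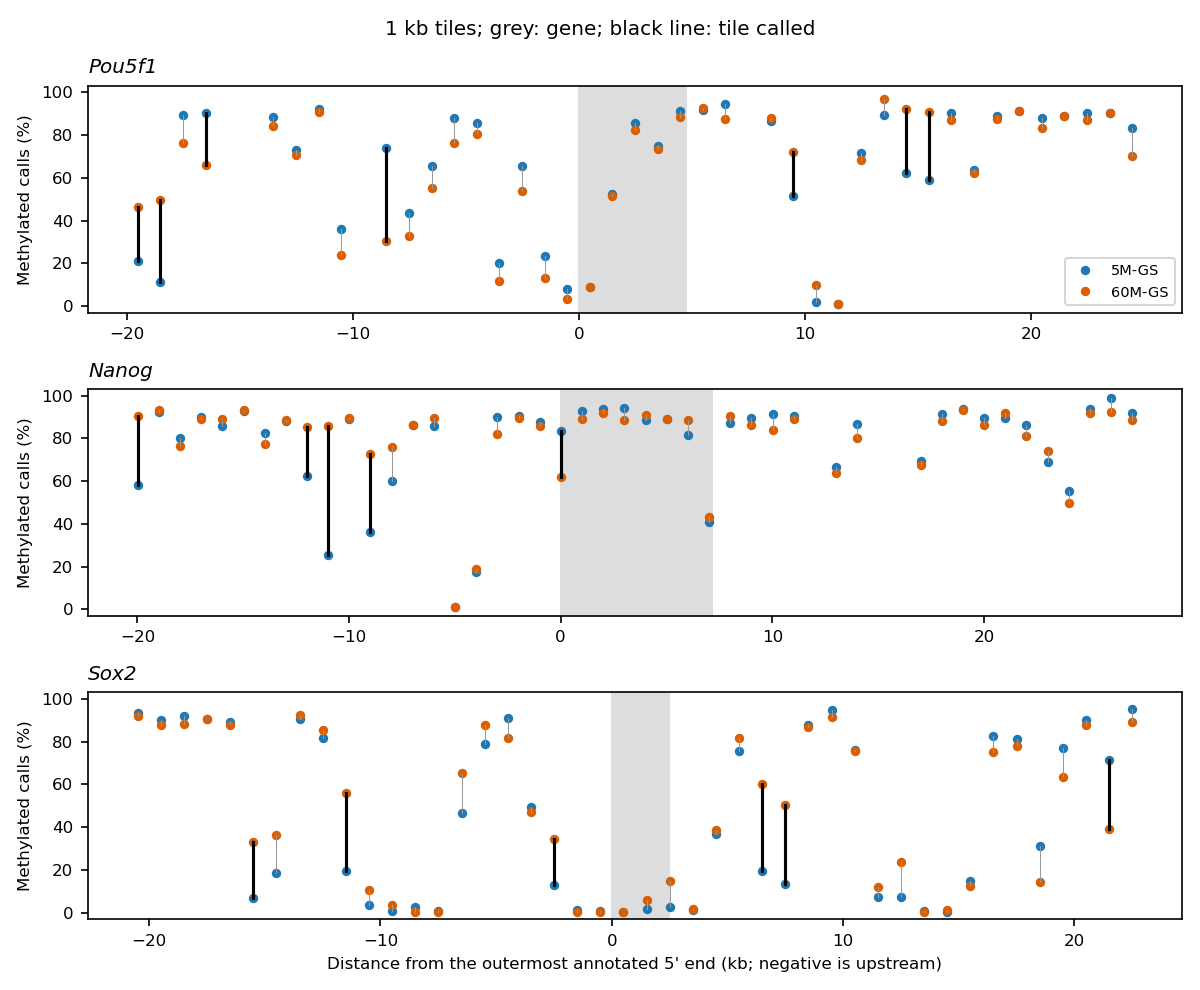
Methylated calls in percent for 1 kb tiles around Pou5f1, Nanog and Sox2, plotted against the distance in kb from the outermost annotated 5′ end, with blue for 5M-GS and orange for 60M-GS. Grey marks the gene and black lines join the values of called tiles: the Nanog tile over its start falls from 83.6% to 61.8%, and the tile from 11488 bp upstream rises from 25.6% to 86.0%.

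Klf4 and Klf2 encode Krüppel-like zinc finger factors, which overlap in function in naive pluripotency. Their promoters were unmethylated in both cultures and their gene spans gained methylation. The Klf4 promoter window (132 CpGs) was at 0.425% and 0.327%, and that of Klf2 (68 CpGs) at 1.99% and 3.60%. The Klf4 span beyond that window (150 CpGs) was at 27.0% (25.5 to 28.5) in 5M-GS and 51.4% (49.8 to 53.1) in 60M-GS, a gain of 24.5 points (Fisher's exact test, adjusted p = 2.47e-96). The Klf2 span (123 CpGs) was at 5.08% (4.33 to 5.95) in 5M-GS and 27.1% (25.4 to 28.9) in 60M-GS, a gain of 22.0 points (Fisher's exact test, adjusted p = 2.60e-113). These were the 2 spans called among the 10, both gains, against 2.51% of 25176 gene spans called as gains and 0.103% as losses. Both spans had been named for description beforehand, with earlier results of these data known. Their count and p-values are therefore a description and not independent support. The calls depend on the scale: with CpGs weighted equally the gains were 19.5 points in Klf4 and 13.1 in Klf2, and with calls divided by the number of CpGs both had an adjusted p of 1.00. Over the whole gene, promoter part included, the Klf2 gain was 17.1 points and was not called.

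Within both genes the gain lay at the downstream edge of the unmethylated stretch. In Klf4, the dense run from 1492 to 2341 bp downstream of the start (64 CpGs, chr4:55530134-55530983, inside the gene) went from 27.8% (25.7 to 30.1) to 71.6% (69.3 to 73.7), a gain of 43.8 points (Fisher's exact test, adjusted p = 2.76e-138). The Klf4 run just before it, from 972 to 1309 bp, went from 0.618% to 8.16% and was not called, while the run from 664 to 909 bp was at 0.673% and 0.244%. In Klf2, the dense run from 1716 to 1963 bp downstream (20 CpGs, chr8:72320778-72321025, inside the gene) went from 8.32% (6.60 to 10.5) to 71.2% (67.8 to 74.3), a gain of 62.9 points (Fisher's exact test, adjusted p = 1.33e-153). The Klf2 run from 340 to 1229 bp, closer to the start, was at 0.382% and 0.284% over 108 CpGs. At the Klf2 CpG 1804 bp downstream, 0% of 26 calls in 5M-GS and 86.0% of 43 calls in 60M-GS were methylated. The stretch below 50% around the start accordingly ended 2094 bp downstream in Klf4 in 5M-GS and 1499 bp downstream in 60M-GS. In Klf2 its end was 2914 bp downstream in 5M-GS and 1642 bp in 60M-GS. Its upstream edge was the same in both cultures, 2157 bp upstream of Klf4 and 842 bp upstream of Klf2. As tiles, the Klf4 one from 1475 bp rose from 28.0% to 71.4%, and the Klf2 ones from 939 and 1939 bp rose from 3.38% to 36.0% and from 33.7% to 70.7%. Outside Klf4 and Klf2 themselves, 0 of the 35 upstream and downstream tiles of Klf4 and 0 of the 33 of Klf2 were called. Genome-wide, 3.48% of tiles were called gains and 0.475% losses, so 0 in so few tiles is near that share. The Klf4 enhancers of embryonic stem cells, 50 to 60 kb downstream, had 0 of 9 tiles called, and the least methylated of these tiles was at 3.81% and 2.98%.

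**Figure D3:**
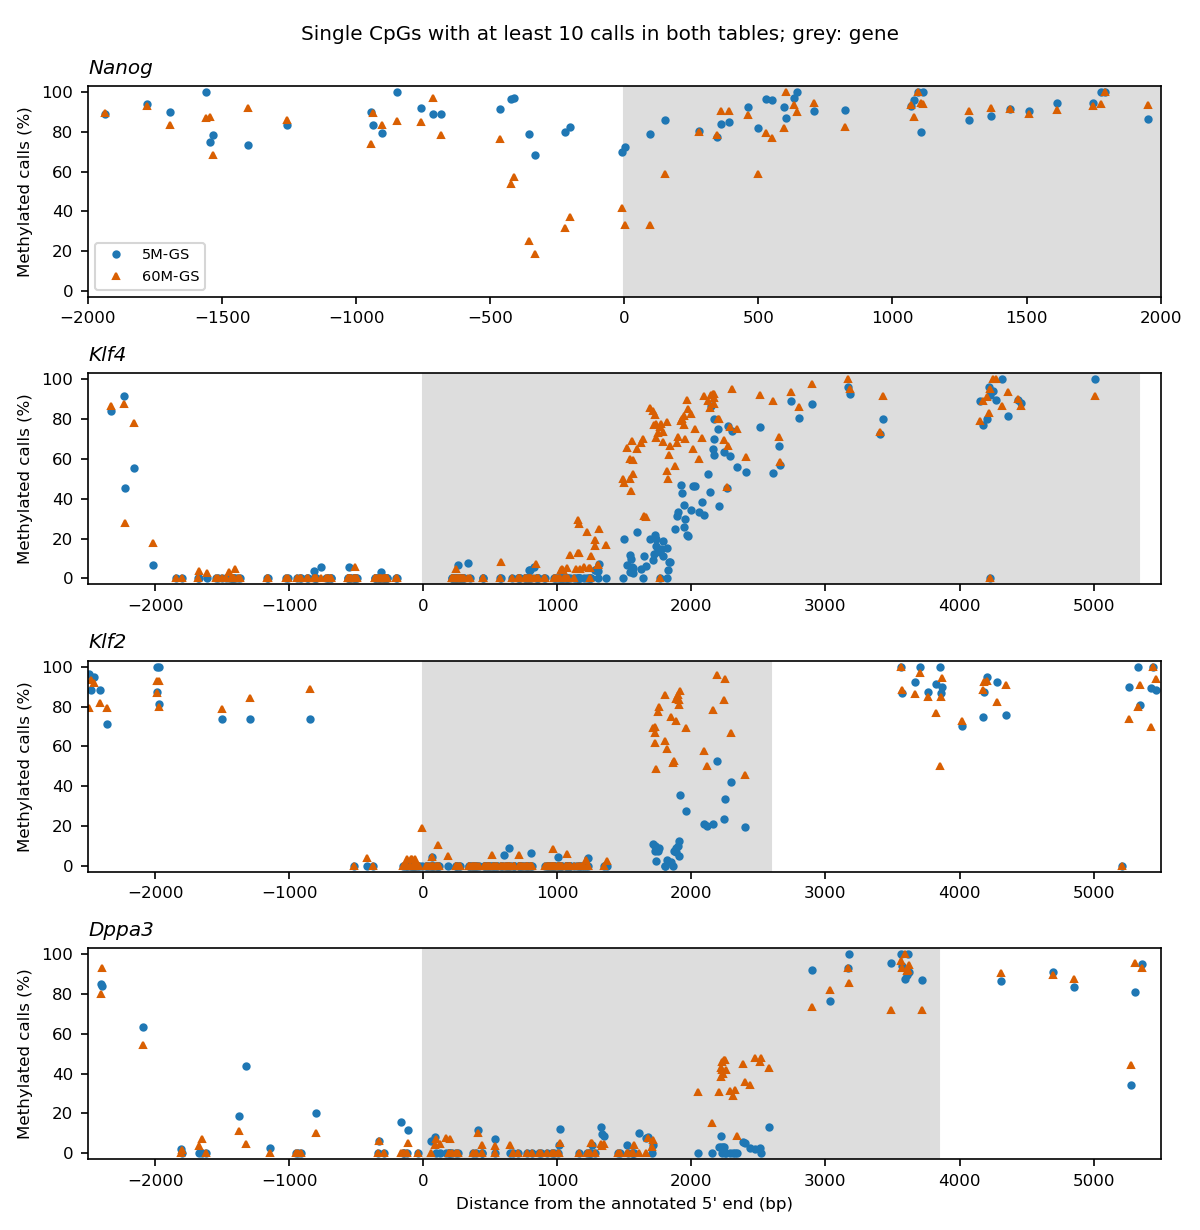
Methylated calls in percent at single CpGs with 10 or more calls in each table, against the distance in bp from the annotated 5′ end, for Nanog, Klf4, Klf2 and Dppa3. Blue circles are 5M-GS, orange triangles are 60M-GS, and grey marks the gene. The 60M-GS points lie below those of 5M-GS around the Nanog start and above them from about 1492 to 2094 bp in Klf4, 1716 to 2252 bp in Klf2 and 2227 to 2517 bp in Dppa3.

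Dppa3 encodes a maternal and germ cell protein, also called Stella, that protects the egg's genome from demethylation after fertilisation. Its promoter window was at 2.48% (1.56 to 3.94) and 2.52% (1.60 to 3.96). Its gene span was at 15.0% (13.5 to 16.7) in 5M-GS and 27.7% (25.8 to 29.8) in 60M-GS, a difference of 12.7 points (Fisher's exact test, adjusted p = 1.86e-20) that was under the 20 points asked for. As in the Klf genes, the difference was inside the gene and downstream of an unmethylated start. The Dppa3 tile from 1577 to 2576 bp downstream rose from 2.33% (1.46 to 3.70) to 32.2% (28.7 to 35.8). From 2227 to 2517 bp, 16 CpGs went from 1.63% to 39.9%. At the Dppa3 CpG 2516 bp downstream, 0% of 40 calls and 47.9% of 48 calls were methylated, and the one 2900 bp downstream was at 92.3% and 73.3%. A tile past the gene, 6577 to 7576 bp downstream of the Dppa3 start, rose from 18.1% to 57.6%. Upstream, the stretch from 5000 to 10000 bp was lower in 60M-GS, at 81.4% and 71.3%.

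Esrrb encodes an orphan nuclear receptor that takes part in the same network, and it is the longest of the 10 genes at 160512 bp. Its outer promoter window (27 CpGs) was at 57.2% (53.4 to 60.9) in 5M-GS and 67.0% (63.2 to 70.6) in 60M-GS, a difference of 9.86 points (Fisher's exact test, adjusted p = 0.00218). In the narrower window it was at 47.4% and 66.9%, or 19.5 points apart, just under the difference required. The inner start, 60527 bp downstream, was the unmethylated one, at 8.51% and 11.1% over its window (Fisher's exact test, adjusted p = 0.106), and its dense run of 38 CpGs was at 0.455% and 0.644%. Of the 3 windows at inner starts (Pou5f1, Nanog and Esrrb), 0 were called, against 2.95% of all such windows as gains and 0.478% as losses. The whole Esrrb span hid changes in opposite directions, at 73.3% and 72.8%. Of 198 tiles, 5 were called gains and 3 losses, against 3.48% and 0.475% of all tiles genome-wide. The largest gain was the tile 152884 to 153883 bp downstream of the Esrrb start, from 2.02% (1.21 to 3.36) to 60.2% (56.5 to 63.8), with an adjusted p of 5.97e-139. The adjoining tiles from 73884 and 74884 bp went from 49.6% to 89.9% and from 56.9% to 89.9%. The largest Esrrb loss was the tile from 68884 bp, from 79.4% (76.0 to 82.4) to 36.2% (32.6 to 39.9), with an adjusted p of 4.65e-55. It lies 5000 bp from the gain at 73884 bp. The next largest Esrrb loss, the tile from 112884 bp, went from 82.6% to 50.3%.

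Zfp42, also called Rex1, is a zinc finger marker of the naive state. Its promoter window was at 3.06% (2.11 to 4.41) and 4.49% (3.30 to 6.08), and its span was at 71.3% and 69.8%, with an interval of the difference of -3.59 to 0.526. The dense run at the far end of Zfp42, from 10584 to 11339 bp, was at 92.0% and 91.7%. The tile of Zfp42 that was called, from 27009 bp downstream of the start and outside the gene, went from 33.2% to 76.1%. Prdm14 encodes a PR-domain factor of primordial germ cells. Its promoter window was at 3.87% (2.82 to 5.28) in 5M-GS and 8.44% (6.90 to 10.3) in 60M-GS, a difference of 4.57 points (Fisher's exact test, adjusted p = 2.45e-04). In the narrower window Prdm14 was at 6.09% and 14.9%, and the span was at 49.3% and 45.6%. Its called tiles lay downstream of the gene, with gains from 43.3% to 77.4% and from 11.6% to 63.8% in adjoining tiles and a loss from 78.8% to 47.0%. The tile that rose from 11.6% and the tile of the loss overlap the annotated gene Gm39592. Tdgf1 encodes Cripto, a co-receptor for Nodal. Its promoter window was at 1.40% (0.819 to 2.38) and 1.31% (0.780 to 2.18), and its span was lower in 60M-GS, at 54.7% and 47.7% (-7.02 points, Fisher's exact test, adjusted p = 9.74e-05). None of the 47 tiles of Tdgf1 was called, against 3.48% of all tiles genome-wide called as gains and 0.475% as losses.

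**Figure D4:**
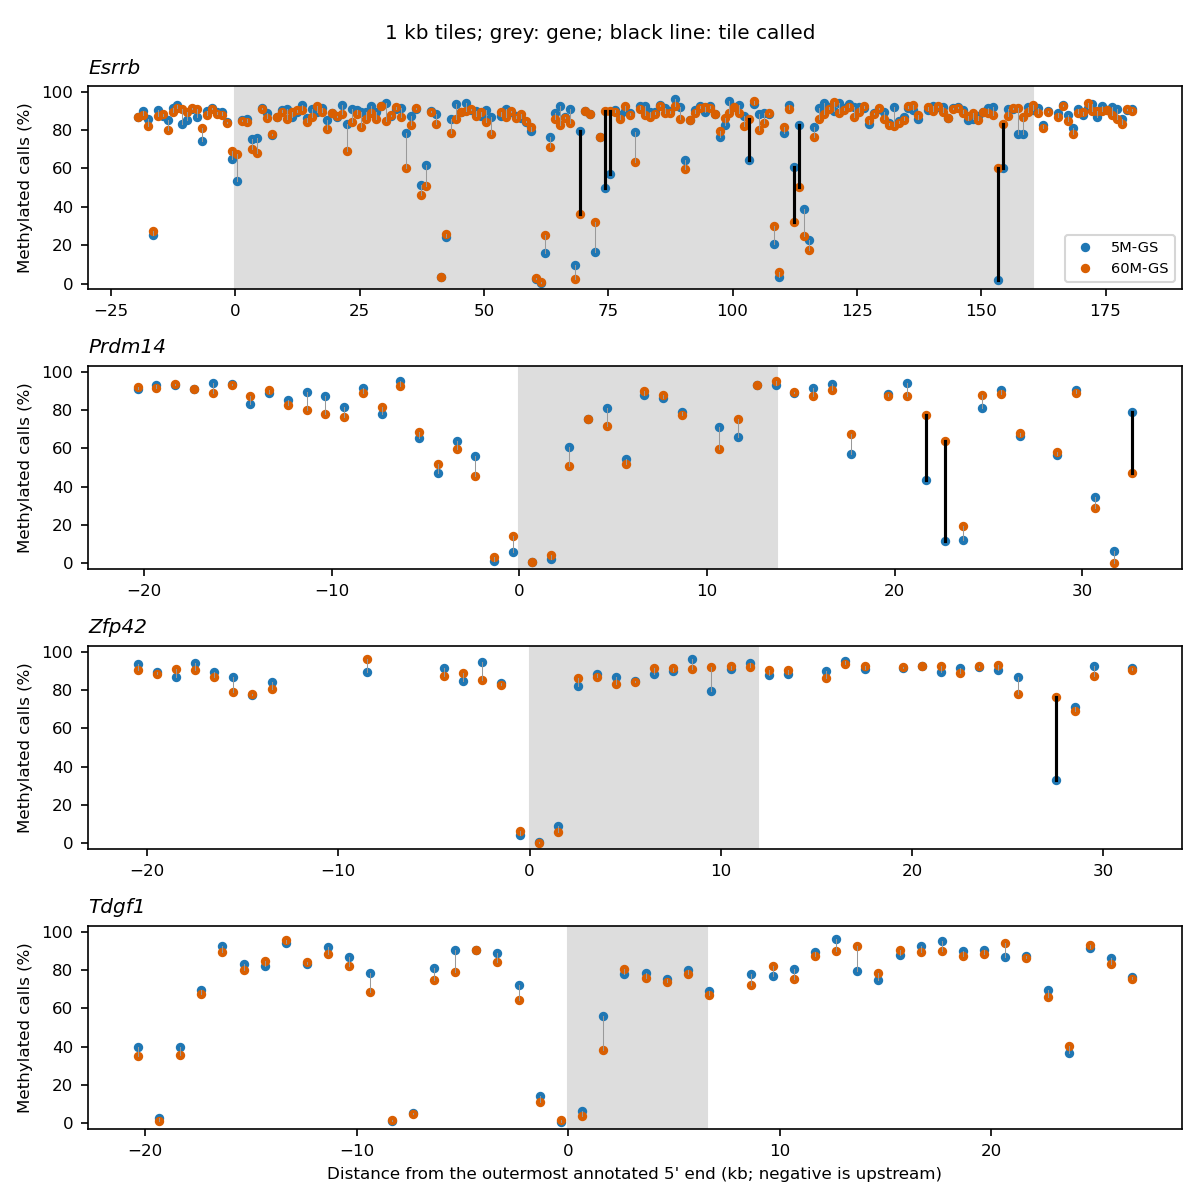
Methylated calls in percent for 1 kb tiles around Esrrb, Prdm14, Zfp42 and Tdgf1 against the distance in kb from the outermost annotated 5′ end, with blue for 5M-GS, orange for 60M-GS, grey for the gene and black lines joining called tiles. Esrrb holds gains and losses inside the gene, Prdm14 and Zfp42 hold called tiles only downstream of the gene, and Tdgf1 holds none.

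Over the flanks and genes together, 27 of 586 tiles were called gains (4.61%) and 8 losses (1.37%), against 3.48% and 0.475% of all 1689849 tiles. The shares of single CpGs called were 3.23% as gains and 0.589% as losses of 6963 CpGs, against 2.02% and 0.215% genome-wide. These shares are a description, since neighbouring CpGs and tiles share reads and elements. Gains by gene ran from 5 in Pou5f1, Sox2 and Esrrb to 0 in Tdgf1, and losses were 3 in Esrrb, 2 in Pou5f1, and 1 each in Nanog, Sox2 and Prdm14. Upstream flanks held 9 gains and 2 losses in 182 tiles, genes 9 and 4 in 224, and downstream flanks 9 and 2 in 180. By starting level, 10 of the 30 tiles between 10% and 30% in 5M-GS were gains (33.3%, against 29.1% of such tiles genome-wide). So were 4 of the 51 tiles below 10% (7.84%, against 7.38%) and 13 of the 73 between 30% and 70% (17.8%, against 23.6%). Of the 432 tiles at 70% or more, 7 were losses (1.62%, against 0.253%). Tiles below 30% in both made up 63 of the 586 (10.8%, against 4.19%). Among single CpGs, 21 of 6963 were no higher than 10% in 5M-GS and no lower than 80% in 60M-GS (0.302%, against 0.263% genome-wide) and 2 the other way (0.0287%, against 0.00562%). The 4 upstream stretches of each gene, from 1000 to 20000 bp, gave 0 calls of 40, against 2.87% as gains and 0.264% as losses. At an unadjusted p under 0.05, 7 of these 40 were higher and 5 lower. The largest upstream difference was that of Nanog from 10000 to 20000 bp, at 69.4% and 87.1%, which holds the dense run described above.

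**Figure D5:**
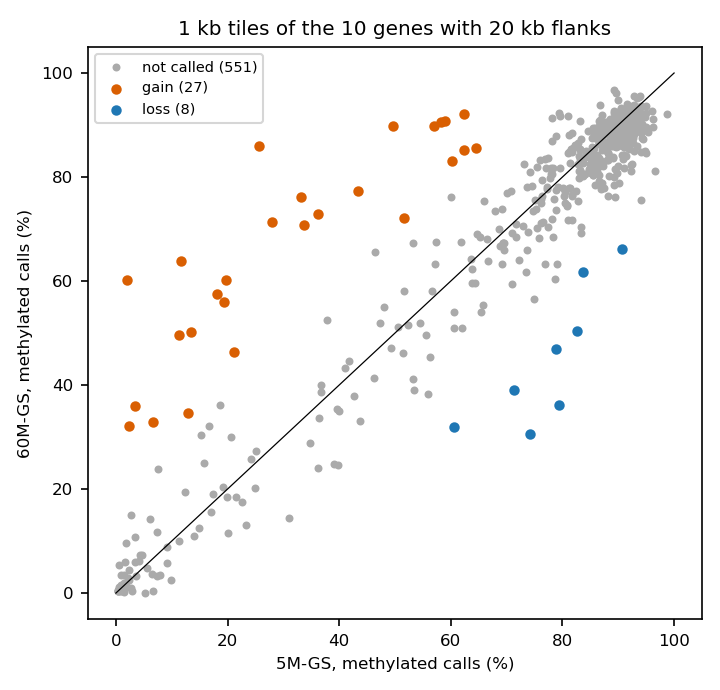
Methylated calls in percent in 5M-GS (horizontal axis) and 60M-GS (vertical axis) for the 586 tiles of the 10 genes with their flanks. Orange points are the 27 gains, blue points the 8 losses and grey points the tiles not called, with the diagonal marking equal levels. The gains start at levels between 2.02% and 64.5% in 5M-GS, and the losses between 60.6% and 90.6%.

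Other genes of pluripotency were listed for comparison, 45 of the naive and general network and 8 of the primed epiblast. Of the 52 with a promoter window (Fbxo15 was not placed), 0 were called. Of all promoter windows 4.55% were called gains and 0.507% losses, and of protein-coding ones 3.66% and 0.300%. At an unadjusted p under 0.05, 7 of the 52 were higher and 6 lower in 60M-GS. At an adjusted p under 0.05 whatever the size, 5 were higher and 4 lower, against 15.8% and 5.03% of all windows. Below 10% in both cultures were 30 of 44 network genes (68.2%) and all 8 primed genes, against 55.2% of all protein-coding promoter windows. The largest difference was that of Gdf3, a TGF-beta ligand whose promoter lies in the upstream flank of Dppa3, at 19.1% (16.1 to 22.4) and 35.4% (31.9 to 39.0), or 16.3 points (Fisher's exact test, adjusted p = 1.16e-09). Sall4, a zinc finger factor also used in spermatogonia, was at 1.11% and 1.04%, and Lin28a, an RNA-binding protein, at 0.740% and 1.15%. Utf1, a chromatin factor, was at 1.32% and 2.58%. Tet1, an enzyme that oxidises methylcytosine, was at 8.26% and 10.8%, and Dppa5a at 11.1% and 13.9%. Of these, Sall4, Lin28a, Utf1, Tet1 and Dppa5a were named whatever they showed, and none of the 5 had an adjusted p under 0.05.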

How the data were processed

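Bisulfite reads of the whole genome were mapped to the mm10 genome using Bismark 0.10.0, according to the submitters' processing notes. Each deposited table lists, per CpG, the counts of methylated and of unmethylated calls made by the authors and the percent of methylated calls that the authors computed from them. The percent column served only to check the counts. Each of the 2 tables pools 2 replicates. How reads were filtered or deduplicated, and whether strands were merged, is not given in the sources used here.

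Genes came from the RefSeq annotation GRCm38.p6, which is the same build and gave no exons, so positions are stated as inside or outside a gene. Starts came from RefSeq promoter sequences, which matched 8 of the 10 genes. The strands of 31 genes, Dppa3 and Prdm14 among them, were set by hand after the tables had been seen. Chromosomes 1 to 19 and X were used. Levels are methylated calls over all calls of CpGs reaching 5 calls in each table (10 for single CpGs), in regions with at least 4 such CpGs. Fisher's exact test was adjusted by Benjamini-Hochberg over all regions of a kind. It was also run on simulated data in which calls were drawn independently. A call needs an adjusted p under 0.05 and 20 points. Calls on 1 read are not independent, so p-values are too small, and the simulated data could not show this. Levels carry 95% Wilson intervals, and differences carry Newcombe's intervals made from these. Named are the 10 genes, their called regions (up to 5 tiles each, by difference), called genes of the wider list, and Tet1, Sall4, Lin28a, Utf1 and Dppa5a. Gdf3, single CpGs, the runs of neighbouring CpGs and regions under the call threshold were chosen after their values were seen. Enhancer positions are approximate, from background knowledge. The members and lists were chosen with earlier results of these data known. Alternatives varied coverage, depth limit, weighting, minimum difference, windows, tile grid and runs. Python 3.11.15, numpy 2.4.6, pandas 2.3.3, numba 0.67.0, scipy 1.17.1 and matplotlib 3.10.9 were used.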

Additional observations from a re-analysis of the deposited data

How the results depend on the processing

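No paired analysis was possible because the tables hold no replicate columns, and leaving out a replicate could not be run for the same reason. No called result changed direction under the alternatives run. Promoter windows called, 0 of 10, came to 1 (Nanog, a loss) without CpGs of over 74 calls, with CpGs weighted equally, at a minimum of 10 points, and in the window from 500 bp upstream to 200 bp downstream. Upstream stretches called, 0 of 40, came to 1 with CpGs weighted equally (Pou5f1, 5000 to 10000 bp, -20.1 points) and to 5 at 10 points. Gene spans called, 2 of 10, came to 0 with calls divided by the number of CpGs, with CpGs weighted equally and at 30 points, and to 1 (Klf4) over the whole gene. Tiles called, 35 of 586, came to 2 with divided calls, 63 at 10 points (37 gains and 26 losses) and 23 at 30 points (18 and 5). Dense runs called, 3 of 25, came to 21 of 142 (19 gains and 2 losses) with runs of at least 10 CpGs and gaps of at most 100 bp. Promoters of other pluripotency genes called, 0 of 52, came to 1 (Gdf3) at 10 points. The causes of these shifts were not tested, beyond the changed threshold or weighting itself. With about 21 calls per CpG, a single CpG needs a large difference to be called, and the pooled tables give no replicate error.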
